A study of Mus musculus with 12 samples.

Results

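The genes described here encode the protein subunits of the cytosolic ribosome in the mouse. They were taken by name: symbols of the Rpl or Rps kind followed by a digit, with Rpsa, Rplp0, Rplp1 and Rplp2, and without the Rps6k kinases, numbered pseudogenes and Rps19bp1. Of 99 names that matched, 14 were dropped by name and 3 for a mean under 100 over the 12 libraries, which left 82 of the 21885 genes in the deposited table. They comprise 43 genes of the large subunit, 31 of the small subunit, 3 of the stalk (Rplp0, Rplp1 and Rplp2) and 5 paralogs (Rpl22l1, Rpl36al, Rps27l, Rps27rt and Rpl7l1). Rps10 had the lowest mean of the genes kept, at 405, and Rpl3l, at 64.6, the highest of those dropped for their mean. Rpl39l had a mean of 3.73 and Rpl10l was listed at 0 in each library.

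RNA-seq of sorted cells gave 12 libraries, in 3 groups of 4. The Pax5 KO group held cells at the common lymphoid progenitor (CLP) and pre-pro-B stage from fetal livers of genotype Pax5-/-, the Pax5 WT group came from Pax5+/+ fetal livers at the pro-B and pre-BI stage, and the P80R B-ALL group held GFP+ B-cell acute lymphoblastic leukaemia (B-ALL) cells with PAX5 P80R from primary recipients 1300, 1301, 1302 and 1308. Genotype and sorted stage change together between the fetal liver groups, so their parts cannot be told apart, and the leukaemia cells come from transplanted recipients while the reference cells come from fetal liver. The sources used here do not give the strain, the ages, the vector behind the GFP or the cells the recipients kept of their own, nor do they say whether the fetal liver libraries came from separate animals, so p-values measure the spread between these samples, which may be technical.

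Each ribosome holds nearly all of these proteins in equal number, and ribosomal proteins left without partners are unstable, so cells usually make the set together. Their mRNAs are among the most abundant of a growing cell and commonly begin with a 5' terminal oligopyrimidine (TOP) tract, a C followed by further pyrimidines at the first transcribed base, through which mTOR signalling governs their translation. MYC raises the transcription of ribosome components in B-lineage precursors and their leukaemias. Loss of an allele of several members causes Diamond-Blackfan anaemia, an inherited failure of red cell production, and mutations of RPL10, RPL22 and RPL5 are known in human T-cell leukaemia.

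RefSeq start sites were matched by symbol for 62 of the 82 genes. On the gene's strand, a C with at least 4 pyrimidines in an unbroken run from the annotated start base was present in 14 of these (22.6%), against 3.01% of the 27025 gene names in the same table. Within 5 bases of the start it was present in 48.4% of the 62 and in 21.2% of all. The windows printed next show 40 bases before and 20 bases from the annotated start (RefSeq, build GRCm38.p6, which is not the mm39 build of the reads), with the start base and the run in capitals. They show the gene with the highest level per kilobase and largest rise in the leukaemia (Rps27), another of high level (Rps18) and the lowest per kilobase (Rps10). The others are the target of the S6 kinases (Rps6) and a gene with a run that did not pass the threshold in the leukaemia (Rpl28). Last is Rps2, whose annotated start has no run.
Rps27 (chr3:90213629-90213688, minus strand): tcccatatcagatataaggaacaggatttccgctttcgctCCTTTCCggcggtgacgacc
Rps18 (chr17:33955646-33955705, minus strand): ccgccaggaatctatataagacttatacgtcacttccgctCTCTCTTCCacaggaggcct
Rps10 (chr17:27635225-27635284, minus strand): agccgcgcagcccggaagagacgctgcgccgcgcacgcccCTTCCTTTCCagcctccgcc
Rps6 (chr4:86857348-86857407, minus strand): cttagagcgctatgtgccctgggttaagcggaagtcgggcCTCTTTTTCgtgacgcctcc
Rpl28 (chr7:4792925-4792984, plus strand): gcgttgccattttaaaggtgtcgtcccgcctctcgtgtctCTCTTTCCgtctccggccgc
Rps2 (chr17:24720023-24720082, plus strand): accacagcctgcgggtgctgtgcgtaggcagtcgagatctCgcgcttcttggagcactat
A match is a description of the annotated start and not a mapped cap site.

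Depth was 24914250 to 43513852 reads in genes per library, with the lowest totals in the leukaemia. Within Pax5 KO, libraries had rank correlations of 0.996 to 0.997, within Pax5 WT of 0.991 to 0.997, and within the leukaemia of 0.899 to 0.954. The 82 genes' log2 values had a median standard deviation of 0.07, 0.16 and 0.31 in that order. Pax5 itself ran from 229.9 to 267 in Pax5 KO and from 6194 to 7315 in Pax5 WT, so those labels matched the gene's level, although reads are summed over the gene and its deleted part cannot be seen apart. In the leukaemia Pax5 was at 847, 1146, 1316 and 255 in recipients 1300, 1301, 1302 and 1308, below Pax5 WT in each (-3.15 ± 0.45, adjusted p = 0.000696 by limma), with 1308 in the range of Pax5 KO. Gene-level values do not tell the P80R allele from the wild type. Sums of 10 pro-B and pre-B cell markers were 103551 to 190161 in the leukaemia, against 237703 to 276572 in Pax5 WT and 40457 to 41391 in Pax5 KO. Sums of 10 erythroid markers were at most 227 in each fetal liver library but 32743 in recipient 1302, 38944 in 1301, 415289 in 1300 and 1071027 in 1308. Sums of 12 granulocyte and monocyte markers ran from 5687 to 280919 in the leukaemia, also with the highest value in 1308. They ran from 10561 to 11308 in Pax5 KO, above recipient 1302 (5687), and from 575 to 828 in Pax5 WT. Of 5 hepatocyte markers, Alb, Apoa1 and Ttr were at 0 in all libraries. Sums of the 5 reached at most 104 in Pax5 KO, 40.6 in Pax5 WT and 111 in the leukaemia. In sorted bulk samples, fewer cells of a type and less RNA per cell cannot be told apart.

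The 82 genes took the smallest mean share of reads in Pax5 KO and the largest in the leukaemia. Their share was 3.65%, 3.40%, 3.37% and 3.72% in Pax5 KO 1 to 4 (3.53% ± 0.17, SD, n = 4) and 4.00%, 4.12%, 4.30% and 4.90% in Pax5 WT 1 to 4 (4.33% ± 0.40). In the leukaemia it was 6.54% in recipient 1300, 6.96% in 1301, 5.54% in 1302 and 4.53% in 1308 (5.89% ± 1.09). The fetal liver groups did not overlap. Recipient 1308 lay below Pax5 WT 4, so the leukaemia overlapped Pax5 WT but not Pax5 KO. The library of lowest share in the leukaemia, 1308, had the highest erythroid and myeloid marker sums. It was also the highest of the recipients for early lymphoid progenitor (123046), plasmacytoid dendritic (197122), macrophage (30510) and NK cell (4042) markers. For T cell markers and for pro-B and pre-B cell markers it was not the highest. Recipient 1300 had the next highest erythroid (415289) and granulocyte and monocyte (169161) sums, at a share of 6.54%. The part of these cell types in the shares was not tested. Shares are a description, and no test was made of them.

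**Figure D1:**
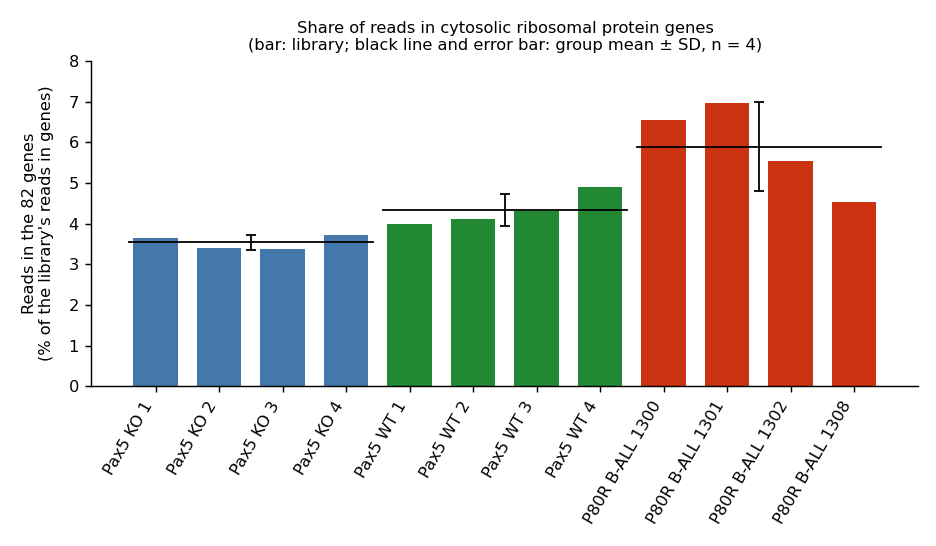
Reads in the 82 cytosolic ribosomal protein genes as a percent of each library's reads in genes, one bar per library, with the group mean and SD in black (n = 4). Pax5 KO lies at 3.37 to 3.72%, Pax5 WT at 4.00 to 4.90% and P80R B-ALL at 4.53 to 6.96%.

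Between the genes, levels per kilobase of transcript spanned a wide range. Over all libraries the highest were Rps27 (56529.9 scaled reads per kb), Rps14 (51097) and Rps18 (50904), all of the small subunit, and the lowest were Rps10 (457), Rpl36al (899) and Rpl24 (1076), with a median of the 82 at 21251. Rps10 and Rpl24 belong to the core ribosome, and all levels given here are of reads assigned to the gene. Ribosomal protein genes have many processed pseudogenes and near-copies, and the sources used here do not give how reads that match several genes were counted. Of 50-base windows of the transcript, 56.8% in Rps10, 81.7% in Rpl24 and 24.9% in Rpl36al also occur in transcripts of other annotated genes. Among the highest genes the share was 98.6% in Rps27, 86.7% in Rps18 and 28.4% in Rps14. The part of shared windows in these levels was not tested. In 42 of the 82 genes such windows made up at least 50% of the transcript, and in 40 less.

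The first comparison, Pax5 KO with Pax5 WT, sets the 2 fetal liver populations side by side. In Pax5 KO 76 of the 82 genes were lower, none was higher and 6 did not pass an adjusted p of 0.05 in limma, with a median log2 difference of -0.39 against 0.06 over all tested genes. Over the 12200 tested genes 29.1% were lower and 35.7% higher. Every gene of the set had a negative difference, from -0.65 in Rpl41 to -0.04 in Rpl7l1. The groups did not overlap, with Pax5 KO lower, for 72 of the 82, against 26.7% of tested genes.

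The fall took in both subunits. It was called for 41 of 43 large-subunit genes (median -0.38), 30 of 31 small-subunit genes (median -0.42), 2 of 3 stalk genes and 3 of 5 paralogs. All 18 members linked to Diamond-Blackfan anaemia were lower in Pax5 KO. Among genes with under 50% shared windows 37 of 40 were lower, and among the others 39 of 42.

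Rpl41, the smallest ribosomal protein, had the largest fall. Its values were 11948, 11262, 11404 and 12751 in Pax5 KO and 16543, 17369, 19300.4 and 21386 in Pax5 WT (log2 difference -0.65 ± 0.08, adjusted p = 1.72e-05). Each Pax5 KO library lay below each Pax5 WT library. Rpl39, a large-subunit protein at the exit of the peptide tunnel, was at 9026, 8775, 8795 and 10117 against 13115, 13235, 14192 and 17071 (-0.64 ± 0.08, adjusted p = 3.34e-05). Again the groups were apart, and Rpl39l, its germ-cell paralog, was listed at 0 in 3 of 4 Pax5 KO and in all Pax5 WT libraries. Rpl29, a large-subunit protein that mice can live without, was at 2797, 2756, 2854 and 2939 against 3908, 4255, 4339 and 4991 (-0.62 ± 0.07, adjusted p = 1.32e-05). Rpl12, a protein of the stalk base, was at 8903 ± 398 against 13246 ± 1587 (mean ± SD, n = 4, -0.57 ± 0.08, adjusted p = 5.4e-05). Rpl29 and Rpl12 also showed no overlap.

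On the small subunit, Rps19, the gene most often mutated in Diamond-Blackfan anaemia, was at 24108 ± 794 in Pax5 KO against 33406 ± 3609 in Pax5 WT (-0.47 ± 0.07, adjusted p = 0.000104). Rps6, the S6 kinase substrate, was at 19750.4 ± 1069 and 26082 ± 2875 (-0.40 ± 0.07, adjusted p = 0.000581). Rpsa, which is also known as the laminin receptor, was at 21267 ± 896 and 30097 ± 2477 (-0.50 ± 0.06, adjusted p = 2.61e-05). Rps2, at 16351 ± 754 and 23075 ± 2076, fell likewise (-0.49 ± 0.07, adjusted p = 4.19e-05). For all of these the groups were apart. Rpl5 and Rpl11, which with 5S rRNA bind MDM2 when assembly fails, had differences of -0.50 (18771 ± 665 against 26652 ± 2963) and -0.40 (10403 ± 657 against 13768 ± 1361), both past the threshold.

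The 6 genes that did not pass the threshold were Rpl7l1 (-0.04 ± 0.06, adjusted p = 0.532), Rps27l (-0.09 ± 0.08, adjusted p = 0.347), Rpl13a (-0.15 ± 0.13, adjusted p = 0.319), Rps12 (-0.18 ± 0.10, adjusted p = 0.132), Rpl27a (-0.18 ± 0.08, adjusted p = 0.0678) and Rplp1 (-0.19 ± 0.08, adjusted p = 0.0565). Rpl7l1 acts in large-subunit assembly, and its values of 6404, 7323, 6977 and 7056 in Pax5 KO overlapped those of Pax5 WT, 7142, 7338, 6816 and 7272, with Pax5 KO 1 the lowest. Rps27l, the p53-responsive paralog of Rps27, overlapped too, at 13707, 13065, 13618 and 15114 against 13623, 14066, 14105 and 17501. Rps27 itself was lower, at 11624 ± 723 against 13845 ± 1519 (-0.25 ± 0.08, adjusted p = 0.0141). Rpl22 was at 7415 ± 465 against 8535 ± 844 (-0.20 ± 0.08, adjusted p = 0.0346) and its paralog Rpl22l1, whose level RPL22 protein is known to hold down, was at 2254, 1923, 2155 and 2239 against 2971, 3067, 3023 and 3845 (-0.58 ± 0.09, adjusted p = 0.000115). The Rpl22 groups overlapped, and the call was lost in 6 of 16 alternatives, with adjusted p from 0.0159 to 0.345. Among these were the fits without Pax5 KO 1, 2 or 3 or Pax5 WT 3 or 4.

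Of the 6 genes without a call, Rplp1, Rpl27a and Rps12 were called lower without Pax5 WT 1, and Rplp1 and Rpl27a also with TMM scaling, upper-quartile scaling, edgeR and the replicate block, with adjusted p over 16 alternatives from 0.0222 to 0.27, 0.0296 to 0.293 and 0.037 to 0.457. When the spread was estimated from all 12 libraries, so that the variable leukaemia libraries entered it, 35 of the 76 calls were made. Leaving out 1 library gave 72 to 79 calls, and 72 of the 76 genes were called in every such fit.

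A second measure asked which genes moved against the others of the set: each library's mean log2 value over the 82 genes was subtracted before the same test. In Pax5 KO against Pax5 WT 16 genes were then lower and 11 higher (over all tested genes 10.8% and 56.5%, since the set itself fell). The furthest down were Rpl41 (-0.27 ± 0.05, adjusted p = 0.000704) and Rpl39 (-0.26 ± 0.05, adjusted p = 0.00107). Of the 11 called higher, the furthest up were Rpl7l1 (0.34 ± 0.09, adjusted p = 0.00804) and Rps27l (0.29 ± 0.05, adjusted p = 0.000452), followed by Rpl27a (0.20 ± 0.05, adjusted p = 0.00376), Rps12 (0.20 ± 0.07, adjusted p = 0.0342) and Rplp1 (0.19 ± 0.05, adjusted p = 0.00503). Rps12 lost this call in 8 of 14 alternatives (adjusted p from 0.0241 to 0.188), among them the fits without Pax5 KO 1 or 4 or Pax5 WT 1, 2 or 3. Rps27l lay 0.48, 0.47, 0.54 and 0.55 above the set's mean in the Pax5 KO libraries and 0.23, 0.23, 0.16 and 0.25 above it in Pax5 WT, while Rpl39 lay at -0.12, -0.10, -0.09 and -0.02 and at 0.17, 0.14, 0.17 and 0.22. These counts rested on small differences: leaving out 1 library gave 6 to 12 lower and 5 to 12 higher genes. Among single libraries, the lower count was 8 or fewer without Pax5 KO 1, 2 or 4 or Pax5 WT 1, 2 or 3, and the higher count 7 or fewer without Pax5 KO 1 or 4 or Pax5 WT 1, 2 or 3.

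**Figure D2:**
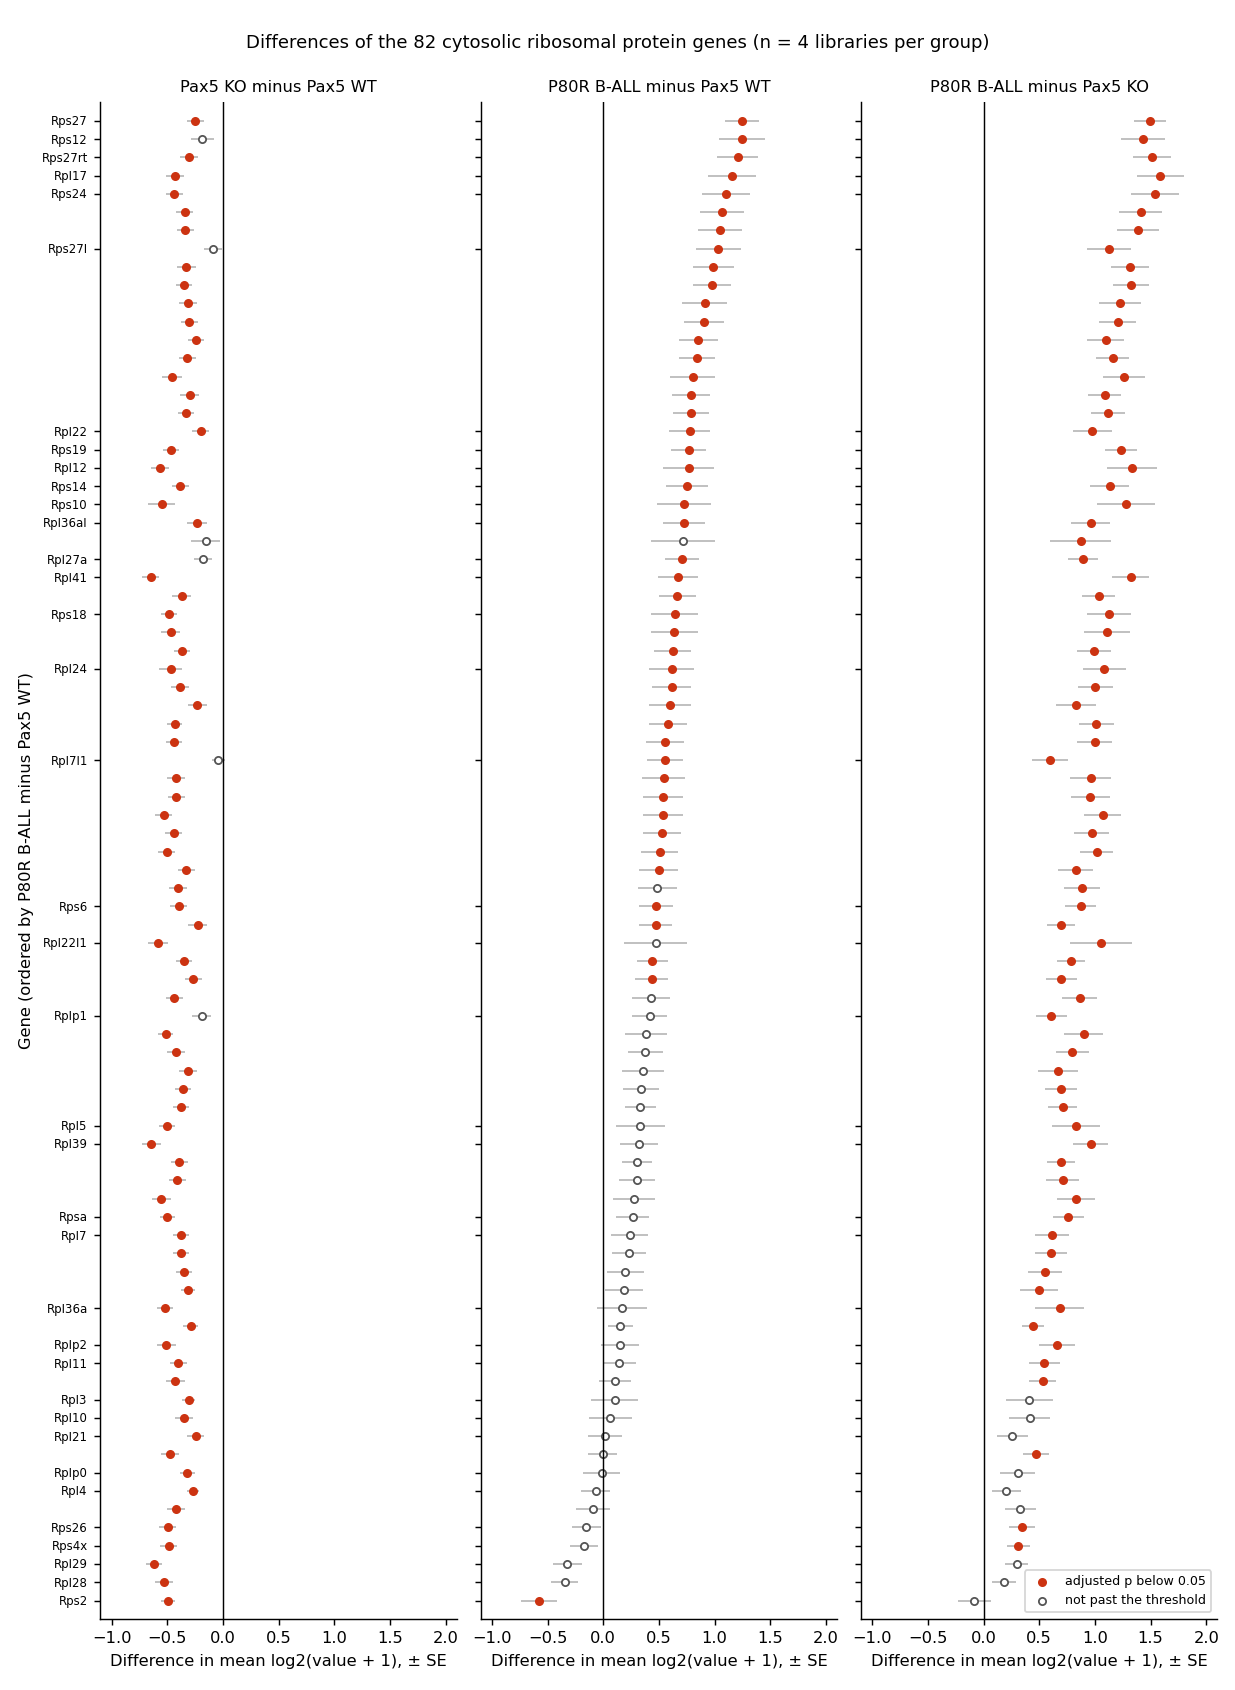
Difference in mean log2(value + 1) with its standard error for each of the 82 genes in 3 comparisons (n = 4 libraries per group), ordered by P80R B-ALL minus Pax5 WT, with filled points past an adjusted p of 0.05 (limma) and names for the paralog pairs, stalk genes, well-known members and those of largest difference. The left panel lies to the left of 0 for every gene, while the middle panel runs from -0.58 in Rps2 to 1.25 in Rps27.

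The next comparison, P80R B-ALL with Pax5 WT, sets the leukaemia beside the B-lineage stage with intact Pax5. In the leukaemia 45 of the 82 genes were higher, 1 was lower (Rps2) and 36 did not pass the threshold, with a median log2 difference of 0.50 against -0.00 over all tested genes. Over all tested genes 21.0% were higher and 18.9% lower. The groups did not overlap, with the leukaemia higher, for 36 of the 82, against 21.2% of tested genes. The rise was called for 21 of 31 small-subunit genes (median 0.60), 20 of 43 large-subunit genes (median 0.43), 4 of 5 paralogs and none of the 3 stalk genes. No test was made of a difference between the subunits. Among genes with under 50% shared windows 20 of 40 were higher, and among the others 25 of 42.

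Rps27, a zinc-finger protein of the small subunit, had the largest rise. It was at 12668, 13122, 13528 and 16061 in Pax5 WT and at 35609.6, 36439.5, 25187 and 34925 in recipients 1300, 1301, 1302 and 1308 (1.25 ± 0.16, adjusted p = 0.000332). Recipient 1302 was the lowest of the leukaemia libraries and still lay above all Pax5 WT libraries. The retrogene Rps27rt was at 4421 ± 945 against 1886 ± 212 (1.21 ± 0.18, adjusted p = 0.00094), but 91.1% of its windows and 98.6% of those of Rps27 occur in other genes, so the pair's values are uncertain. Rps27l, with 22.4% shared windows, was at 30716, 44911, 23487 and 25618 in the leukaemia against 14824 ± 1798 in Pax5 WT (1.03 ± 0.20, adjusted p = 0.00362), with recipient 1301 highest and no overlap.

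Rps12, which is known from fly work for its part in cell competition, was at 3125, 3535, 3703 and 4331 in Pax5 WT and 11220.4, 10564, 7384 and 6381 in the leukaemia (1.24 ± 0.20, adjusted p = 0.00135). Rps24, a Diamond-Blackfan anaemia gene, was at 18642, 18183, 20522 and 22604 and 60851, 52032, 33053 and 31933 (1.10 ± 0.22, adjusted p = 0.00365). In both genes recipients 1300 and 1301 were the highest, and all 4 leukaemia libraries lay above Pax5 WT. Rpl17, a protein at the tunnel exit of the large subunit, was at 2172, 2086, 2379.7 and 2537 and 6934, 6404, 4101 and 3706 (1.16 ± 0.21, adjusted p = 0.00261). Rps19 was at 31139, 31172, 32588 and 38724 and 64043, 68505, 50374 and 46554 (0.77 ± 0.16, adjusted p = 0.00451), and Rps14, the gene lost in the 5q- syndrome, at 34601 ± 4187 and 59309 ± 14544 (0.75 ± 0.19, adjusted p = 0.0108). Rpl22, a tumour suppressor in T-cell leukaemia, was at 7742, 8057, 8686 and 9655 and 18702, 17201, 12347 and 11316 (0.78 ± 0.18, adjusted p = 0.00855), again without overlap. Of the 18 Diamond-Blackfan anaemia genes 12 were higher and 6 did not pass the threshold (median 0.61).

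**Figure D3:**
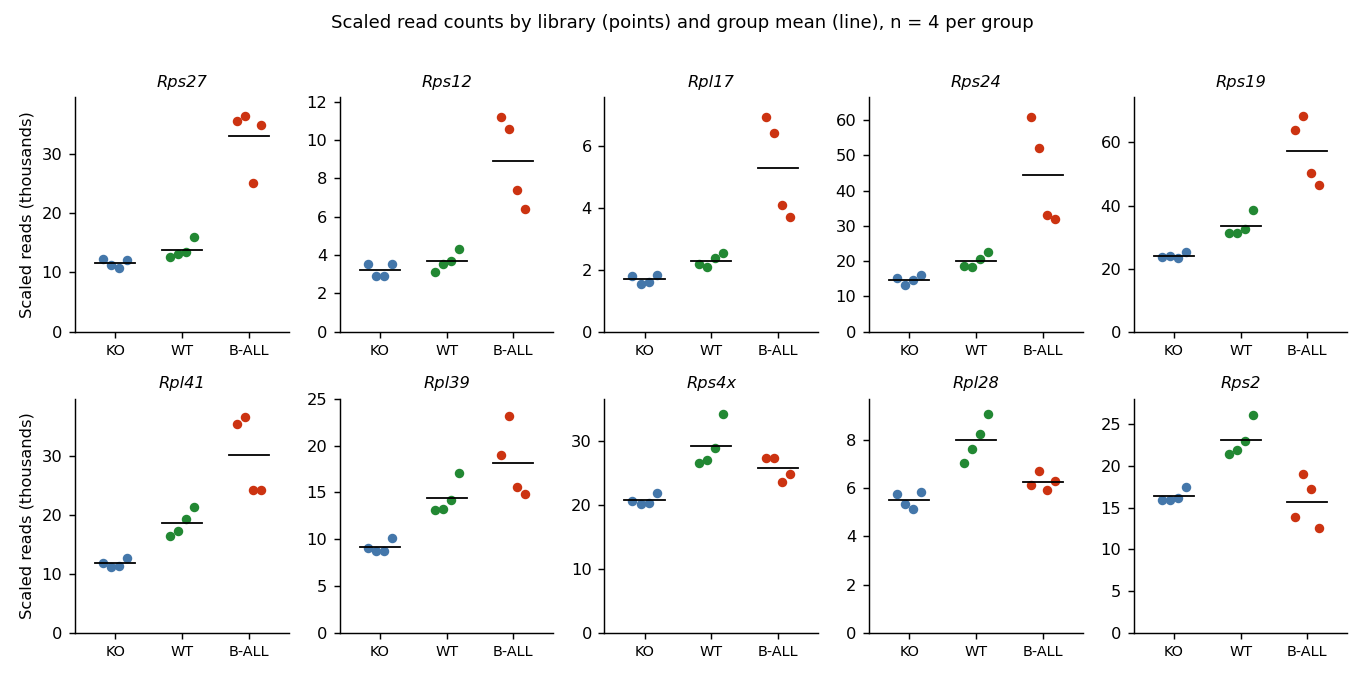
Scaled read counts divided by 1000 for 10 of the 82 genes, one point per library and a line at the group mean (n = 4). Rps27, Rps12, Rpl17, Rps24, Rps19 and Rpl41 have all 4 P80R B-ALL points above Pax5 WT, Rpl39 and Rps4x overlap it, and Rpl28 and Rps2 lie below it.

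Rps2 went the other way. This small-subunit protein of the mRNA entry region was at 21445, 21872, 22939.7 and 26043 in Pax5 WT and at 13826, 19012, 17179 and 12503 in the leukaemia (-0.58 ± 0.16, adjusted p = 0.017). All 4 leukaemia libraries lay below Pax5 WT, and they overlapped Pax5 KO (15921, 15860.2, 16158 and 17465). The call was lost without Pax5 WT 4 and without recipients 1300 and 1308 together, with adjusted p from 0.00276 to 0.0514 over 16 alternatives. Rpl28 and Rpl29 also lay below every Pax5 WT library, without passing the threshold. Rpl28 was at 6140.0, 6697, 5914 and 6295 in the leukaemia and 7052, 7611, 8248 and 9056 in Pax5 WT (-0.35 ± 0.12, adjusted p = 0.0502), and Rpl29 at 3338, 3645, 3708 and 3265 and 4373 ± 452 (-0.32 ± 0.13, adjusted p = 0.0684). Rpl28 passed the threshold without recipient 1301, with a pseudocount of 10, with a minimum mean of 100 and in the fit to all 12 libraries, and its adjusted p ran from 0.0119 to 0.137 over 16 alternatives. Rpl29 passed in the fit to all 12 libraries (0.016 to 0.172 over the same alternatives).

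The 3 stalk genes, whose products carry the elongation factor binding site, did not pass the threshold in limma (1 higher at an unadjusted p under 0.05, none by edgeR). Rplp0 was at 53317, 80338, 57581 and 49403 in the leukaemia against 59785 ± 5479 (-0.01 ± 0.17, adjusted p = 0.96), and Rplp1 and Rplp2 had differences of 0.42 and 0.15. Other large-subunit genes near 0 included Rpl3, which forms part of the peptidyl transferase region (0.10 ± 0.21, adjusted p = 0.727), Rpl10, the last large-subunit protein to join (0.06 ± 0.19, adjusted p = 0.817), Rpl4 (-0.07 ± 0.13, adjusted p = 0.706) and Rpl21 (0.01 ± 0.15, adjusted p = 0.951). Rps4x on the X chromosome (-0.17 ± 0.13, adjusted p = 0.306) and Rps26 (-0.15 ± 0.13, adjusted p = 0.377) were small-subunit genes near 0. Rpl5 and Rpl11 had differences of 0.33 and 0.15 and did not pass either, nor did Rpl39 (0.32), Rpl7 (0.24) or Rpl36a (0.17), whereas the paralogs Rpl7l1 (0.56) and Rpl36al (0.73) were higher. A paralog was not tested against its partner. The adjusted p of Rpl3 ran from 0.049 to 0.846 over 16 alternatives, so its lowest value was past the threshold. Rpl5 was called higher without recipient 1308 (adjusted p from 0.047 to 0.54 over 16 alternatives) and Rplp1 without Pax5 WT 4 or recipient 1302 (0.0164 to 0.156), while Rpl36al lost its call without recipients 1300 and 1308 together (0.00213 to 0.0522).

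The count of genes higher in the leukaemia moved with single libraries. It was 23, 24 and 25 without Pax5 WT 1, 2 and 3, and 31 without recipient 1300 or 1301. Over all 12200 tested genes the higher calls fell as well, from 2566 to 1964, 1960 and 1937 without Pax5 WT 1, 2 and 3. They were 2463 and 2560 without recipients 1300 and 1301. The set's median difference was 0.45, 0.48 and 0.50 without Pax5 WT 1, 2 and 3, and 0.47 and 0.38 without recipients 1300 and 1301. Of the 45 genes, 23 were called in every fit that left out 1 library. Among these 23 were Rps27, Rps27rt, Rps27l, Rps12, Rps24, Rps19, Rps14, Rpl17, Rpl22, Rpl27a and Rpl36al. Without recipients 1300 and 1308, which had the highest erythroid marker sums, 43 genes were higher, 38 of them among the 45. Rps6 (0.47 ± 0.15, adjusted p = 0.0309) lost its call without Pax5 WT 1, 2 or 3 (0.00654 to 0.093 over 16 alternatives), as did Rpl7l1 (0.0041 to 0.0663), and Rpl41 (0.67 ± 0.18, adjusted p = 0.0148) without Pax5 WT 1 (0.00255 to 0.0516).

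Transcript length moved with this result. Of the 82 genes 52 have transcripts under 1000 bases, and their median difference was 0.54, while 713 other tested genes of that length had a median of 0.53. From 1000 to under 2000 bases the medians were 0.25 for 24 of the set and 0.23 for 2536 others. From 2000 to under 4000 bases they were 0.33 for 5 of the set and -0.05 for 5050 others. At 4000 bases or more the single gene of the set was at 0.99 and 3808 others had a median of -0.21. Lengths are those of 1 annotated transcript per gene, the longest where several were principal. They may exceed the transcript these cells make, so the bins from 2000 bases, with 5 and 1 genes of the set, are uncertain. Reads in other genes with transcripts under 1000 bases made up 5.75 to 7.09% of the Pax5 WT libraries and 11.1%, 10.6%, 7.91% and 14.4% of recipients 1300, 1301, 1302 and 1308, a sum that includes the globin genes. The part of transcript length in the higher levels was not tested. Across genes, Spearman's rho of length with the difference was -0.18 in the set and -0.20 in the other genes, where the points share the same 8 libraries.

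**Figure D4:**
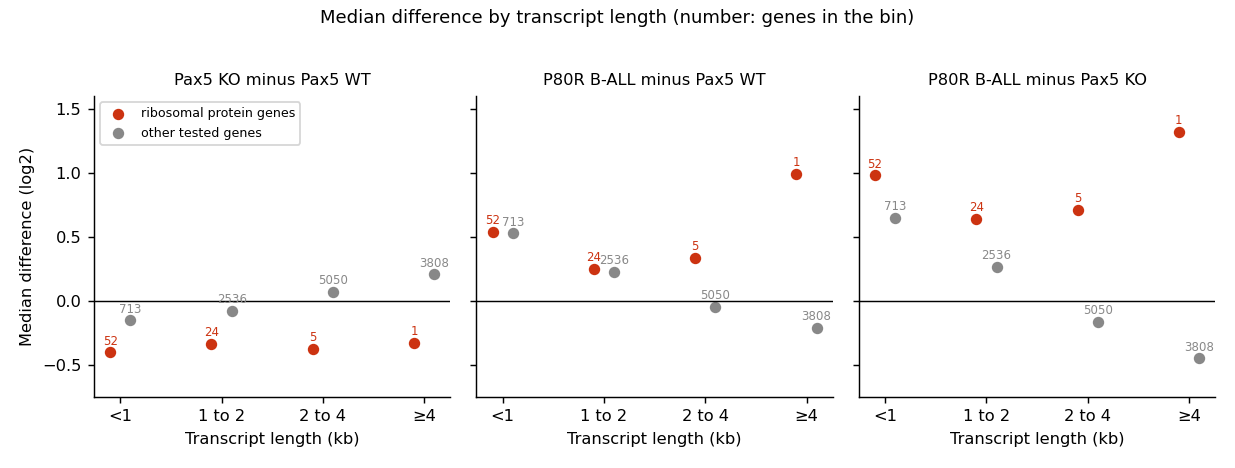
Median log2 difference of the ribosomal protein genes and of the other tested genes in 4 bins of annotated transcript length in kb, with the number of genes beside each point. For P80R B-ALL minus Pax5 WT both kinds lie near 0.5 under 1 kb, whereas for Pax5 KO minus Pax5 WT the ribosomal protein genes lie lower than the others in each bin.

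Beside Pax5 KO, the leukaemia had higher values of nearly the whole set. Of the 82 genes 73 were higher, none was lower by limma and 9 did not pass the threshold, with a median of 0.89 against -0.11 over all tested genes. No gene was lower in the leukaemia at an unadjusted p under 0.05 (0 of 82) or by edgeR (0 of 82), and 0 of 82 were higher by either measure in the first comparison. Over all tested genes 17.6% were higher and 20.8% lower. The groups did not overlap, with the leukaemia higher, for 76 of the 82, against 19.5% of tested genes. This comparison shares its leukaemia libraries with the previous one and its Pax5 KO libraries with the first, so the 3 are not independent. The counts were 30 of 31 in the small subunit (median 1.01), 36 of 43 in the large subunit (median 0.83), 2 of 3 in the stalk and all 5 paralogs. All 18 Diamond-Blackfan anaemia genes were among the 73.

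Rpl17 had the largest difference, at 1809.7, 1549.9, 1615 and 1820.3 in Pax5 KO against 6934, 6404, 4101 and 3706 in the leukaemia (1.59 ± 0.21, adjusted p = 0.001). It was followed by Rps24 (14754 ± 1190.3 against 44467 ± 14295, 1.54 ± 0.22, adjusted p = 0.00123), Rps27rt (1.51 ± 0.17, adjusted p = 0.000482), Rps27 (1.49 ± 0.14, adjusted p = 0.000281) and Rps12 (1.43 ± 0.20, adjusted p = 0.00113). The 9 genes that did not pass were Rps2 (-0.08), Rpl28 (0.18), Rpl4 (0.20), Rpl21 (0.26), Rpl29 (0.30), Rplp0 (0.31), Rpl23 (0.33), Rpl3 (0.41) and Rpl10 (0.42). Of these, Rps2 alone had a negative difference. Without recipient 1308, Rpl3, Rpl4, Rpl23 and Rpl29 were called higher (adjusted p over 16 alternatives from 0.00487 to 0.266, 0.0203 to 0.449, 0.0363 to 0.209 and 0.0139 to 0.143), as was Rpl10 without recipient 1300 (0.0327 to 0.222). Leaving out 1 library gave 64 to 77 calls, and 63 of the 73 genes were called in every such fit. In this comparison the short genes of the set had a median of 0.98 (n = 52) and the other tested genes under 1000 bases one of 0.65 (n = 713).

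Relative to the rest of the set, 18 genes were higher and 14 lower in the leukaemia against Pax5 WT (12.0% and 34.9% of tested genes), and 18 higher and 17 lower against Pax5 KO (5.34% and 58.7%). The genes furthest down stood near or below Pax5 WT in level. Rps2 lay 0.88, 0.87, 0.87 and 0.83 above the set's mean log2 value in Pax5 WT 1 to 4 but at -0.49, -0.21, 0.14 and -0.26 in recipients 1300, 1301, 1302 and 1308 (-1.07 ± 0.14, adjusted p = 0.000623). Rpl28 went from -0.72, -0.66, -0.61 and -0.70 to -1.66, -1.71, -1.40 and -1.25 (-0.83 ± 0.14, adjusted p = 0.00187), Rpl29 from -1.57, -1.50, -1.54 and -1.56 to -2.54, -2.59, -2.07 and -2.20 (-0.81 ± 0.16, adjusted p = 0.00353) and Rps4x from 1.19, 1.17, 1.20 and 1.22 to 0.49, 0.31, 0.59 and 0.73 (-0.66 ± 0.11, adjusted p = 0.00205). In each of these genes every leukaemia library lay below every Pax5 WT library on this scale. Rps26 (-0.64 ± 0.14, adjusted p = 0.00492), Rpl4 (-0.56 ± 0.13, adjusted p = 0.00677), Rplp0 (-0.50 ± 0.11, adjusted p = 0.007) and Rpl21 (-0.47 ± 0.13, adjusted p = 0.015) were also lower.

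The genes furthest up on this scale were Rps27, at 0.12, 0.13, 0.10 and 0.13 in Pax5 WT and 0.88, 0.73, 0.69 and 1.22 in the leukaemia (0.76 ± 0.13, adjusted p = 0.00223), Rps12 (0.76 ± 0.14, adjusted p = 0.00263), Rps27rt (0.72 ± 0.17, adjusted p = 0.00747), Rpl17 (0.67 ± 0.16, adjusted p = 0.0082) and Rps24 (0.61 ± 0.14, adjusted p = 0.00713). Recipient 1308 was the highest for Rps27, while 1300 was the highest for Rps24, at 1.65, 1.24, 1.08 and 1.09 in the same order of recipients. None of the calls of Rps2, Rpl28, Rpl29, Rps4x, Rps27, Rps12, Rps27rt, Rpl17 or Rps24 relative to the set was lost in either leukaemia comparison under any alternative run. Against Pax5 KO the differences were -0.96 ± 0.14, adjusted p = 0.000677 for Rps2, -0.69 ± 0.14, adjusted p = 0.00244 for Rpl28, -0.56 ± 0.11, adjusted p = 0.00267 for Rps4x, 0.72 ± 0.15, adjusted p = 0.0032 for Rpl17 and 0.67 ± 0.14, adjusted p = 0.00336 for Rps24. Shared windows were present on both sides: 71.3% in Rps2, 47.4% in Rpl28, 83.6% in Rps12 and 19.1% in Rps24.

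Among the recipients, 1301 had the highest mean log2 value of the set (14.42), followed by 1300 (14.24), 1302 (13.93) and 1308 (13.87), against 13.51 to 13.84 in Pax5 WT. Genes differed in how far they followed this order. The standard deviation over the recipients was largest in Rpl22l1 (0.63 log2), Rpl13a (0.60), Rpl12 (0.50) and Rpl36a (0.48), and among the smaller ones were those of Rpl28 (0.08), Rpl29 (0.09) and Rps4x (0.10). Rpl22l1 was at 5466, 7395, 3358 and 2869 in the 4 recipients, with 1308 below all Pax5 WT libraries, 1302 among them and 1300 and 1301 above them. Over the 12 libraries the Pearson correlation of each gene's log2 value with the mean of the other 81 had a median of 0.96, and 64 genes were over 0.9. The lowest were Rps2 (-0.04), Rpl28 (0.33) and Rpl29 (0.43). These are descriptions over libraries that fall into 3 groups.

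Genes whose mRNAs also carry TOP tracts, or that make and govern ribosomes, were set beside the 82. Of 20 other translation genes known for TOP tracts, 17 were lower, 1 higher and 2 not past the threshold in Pax5 KO against Pax5 WT (median -0.35). Against Pax5 WT, the leukaemia had 3 higher, 4 lower and 13 not past it (median 0.14), and against Pax5 KO 10 higher, 4 lower and 6 not past it (median 0.40). Over all tested genes 29.1% were lower and 35.7% higher in the first of these comparisons, 21.0% higher and 18.9% lower in the second, to which the list's counts are near, and 17.6% higher and 20.8% lower in the third. Eef2, the translocation factor of elongation, was at 39296 ± 1803 in Pax5 KO, 52975 ± 1416 in Pax5 WT and 24826, 22608, 33031 and 26241 in the 4 recipients, lower in the leukaemia than in Pax5 WT (adjusted p = 0.00055). Pabpc1, the poly(A)-binding protein (-0.86 ± 0.15, adjusted p = 0.00199), Hnrnpa1, a splicing factor (-1.28 ± 0.17, adjusted p = 0.000462), and Eif4b, a helicase cofactor of initiation (-0.87 ± 0.18, adjusted p = 0.0039), were lower as well. Tpt1 (0.61 ± 0.17, adjusted p = 0.0201) and Fau, which encodes a small-subunit protein as a fusion (0.56 ± 0.16, adjusted p = 0.0184), were higher. Both lost the call without Pax5 WT 1 or 2 and without recipients 1300 and 1308 together, and Tpt1 also without Pax5 WT 3 (adjusted p 0.00404 to 0.0825 for Tpt1 and 0.00241 to 0.0796 for Fau over 16 alternatives).

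Factors that assemble ribosomes were counted in the same way. Of 48 assembly factors, 18 were lower, 5 higher and 25 not past the threshold in Pax5 KO against Pax5 WT (median -0.07), and 9 lower, 2 higher and 37 not past it in the leukaemia against Pax5 WT (median -0.34). Against Pax5 KO the leukaemia had 6 lower, 5 higher and 37 not past it (median -0.21). Over all tested genes 29.1% were lower and 35.7% higher in Pax5 KO against Pax5 WT. In the leukaemia against Pax5 WT the share lower was near the 18.9% of all tested genes, and the share higher was under their 21.0%. In the comparison of the leukaemia with Pax5 KO fewer were called in either direction than the 20.8% lower and 17.6% higher of all genes. Ncl, the nucleolar protein nucleolin, was at 84098, 78520.1, 80526 and 82287 in Pax5 WT and 31634, 38721, 58013 and 21988 in the leukaemia (-1.20 ± 0.25, adjusted p = 0.0049), and Gar1, of the pseudouridylation complex, at 4503 ± 202 and 2357 ± 388 (-0.95 ± 0.15, adjusted p = 0.0011). In both genes every leukaemia library lay below Pax5 WT. Nip7, which acts in late large-subunit assembly, was higher, at 5906 ± 2019 against 3282 ± 289 (0.80 ± 0.21, adjusted p = 0.0142). The 14 genes of the RNA polymerase I machinery, which transcribes rRNA, had none past the threshold in the leukaemia against Pax5 WT by limma (median -0.00). There 2 were higher and 1 lower by an unadjusted p under 0.05, and none was called by edgeR. Of all tested genes 21.0% were higher and 18.9% lower in that comparison. In Pax5 KO against Pax5 WT 3 of the 14 were higher and 6 lower, beside 35.7% and 29.1% of all tested genes. In the leukaemia against Pax5 KO 4 were higher and 3 lower, beside 17.6% and 20.8%.

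Of 17 regulators of ribosome production in the MYC and mTOR pathways, 8 were higher and 3 lower in Pax5 KO against Pax5 WT (median 0.02), 1 higher and 7 lower in the leukaemia against Pax5 WT (median -0.28), and 1 higher and 10 lower against Pax5 KO (median -0.56). The first of these counts stands beside 35.7% higher and 29.1% lower over all tested genes, the second beside 21.0% and 18.9%, and the third beside 17.6% and 20.8%. Myc, which activates ribosomal protein and rRNA genes, was at 15706, 16226, 15360.3 and 15895 in Pax5 KO and 8882, 8788, 8646 and 8429 in Pax5 WT (0.86 ± 0.05, adjusted p = 1.3e-08), higher where the 82 genes were lower. In the leukaemia it was at 14105, 13594, 20282 and 4929, with 1302 highest and 1308 below all other libraries, and it did not pass the threshold (0.44 ± 0.36, adjusted p = 0.365). Without recipient 1308 Myc was higher than in Pax5 WT (log2 difference 0.86, adjusted p = 0.00315), and its adjusted p ran from 0.00315 to 0.703 over 16 alternatives. Mycn was at 519.9 ± 59.7 in Pax5 WT and 0, 40.6, 113 and 2.77 in the recipients. Eif4ebp1, the translation repressor that mTOR inactivates, was at 2217 ± 73.2 in Pax5 KO, 5101 ± 423 in Pax5 WT and 774, 1514, 1460.1 and 1182 in the leukaemia (-1.20 ± 0.07, adjusted p = 1.58e-08 for Pax5 KO and -2.09 ± 0.21, adjusted p = 0.000116 for the leukaemia, both against Pax5 WT). Tsc2, an inhibitor of mTOR complex 1, was at 2358, 2526, 2188 and 1690.2 in Pax5 WT and 527, 874, 1440.3 and 765 in the leukaemia, lower in each recipient (-1.36 ± 0.28, adjusted p = 0.00466).

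**Figure D5:**
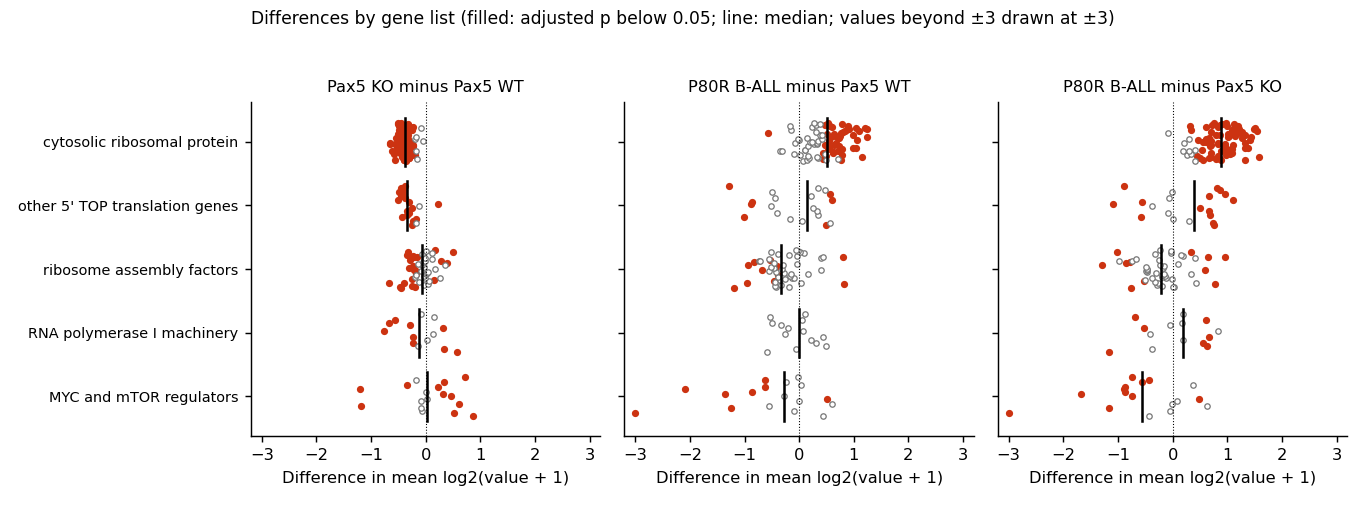
Log2 differences of single genes in 5 lists for 3 comparisons, with filled points past an adjusted p of 0.05 and a line at each list's median; values beyond 3 in size are drawn at 3. The ribosomal protein genes have medians of -0.39, 0.50 and 0.89, and the assembly factors of -0.07, -0.34 and -0.21.

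Genes with and without an annotated TOP start are given side by side, since their difference was not tested. A run was counted only from the annotated start base, and 30 of the 62 had one within 5 bases, so genes without may have one nearby. In Pax5 KO 14 of the 14 with a run and 43 of the 48 without were lower (medians -0.41 and -0.37). Beside these stand 76 of all 82 and 29.1% of tested genes. Against Pax5 WT, 9 of 14 and 28 of 48 were higher in the leukaemia (medians 0.59 and 0.55), beside 45 of all 82 and 21.0% of tested genes. Rps27 and Rpl28 both start with a run, and had differences of 1.25 and -0.35.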

How the data were processed

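Libraries were made with SMART-Seq v4 from sorted cells, per the labels' protocols. Reads were trimmed with fastp, aligned with STAR 2.7.8a to mm39 and counted with featureCounts, per the submitters' processing notes. The sources used here do not give the annotation, whether strand was used or how multiply matching reads were treated. The deposited values are a signal of read counts scaled by the authors: in each library 100% of them are whole multiples (tolerance 0.001) of 1 step, with factors from 0.723 to 1.38.

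Of 21885 identifiers 21780 matched a symbol (GENCODE M21). Differences are in log2(value + 1) between 2 groups of 4 libraries, tested two-sided with limma 3.58.1 (R 4.3.3, trend and robust options) over the 12200 genes that reached a value of 10 in 4 or more libraries, with Benjamini-Hochberg adjustment over all of them and a threshold of 0.05. A log2 difference is given with its standard error, and it understates the change of low genes. Levels per kilobase divide the mean value by the length of 1 annotated transcript per gene (the principal isoform, or the longest where several). Shared windows are 50-base stretches of a transcript found in other annotated genes. edgeR 4.0.16 was run on the recovered reads as an alternative, beside other scalings, filters and fits without a library. The script was tested on simulated data.

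Members and lists were chosen with earlier results of these data known. Named genes were the paralog pairs, stalk genes and well-known members, those with the largest differences or spread, and in other lists those with the smallest adjusted p. Rpl23 was named after its values were seen. Results of 1 member are not reported here by name. Of the list of snoRNA host genes no member was matched, so it is not analysed here.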

Additional observations from a re-analysis of the deposited data

Results flagged for a closer look

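In 180 groups of 4 libraries, 1 per named gene and group, the gap between the highest or lowest library and its nearest neighbour was compared with the group's whole range. Gaps above Dixon's 95% critical value for 4 samples are given here, as a share of the range; chance alone gives about 1 in 20 groups, and 6 were found. Pax5 WT 4 was the highest library for Rps18 (0.893), Rpl22l1 (0.89), Rps27l (0.876) and Mrpl48 (0.981), a protein of the mitochondrial ribosome. It also had the largest share of reads in the ribosomal protein genes among the Pax5 WT libraries. Pax5 KO 3 was the highest of its group for Rps27rt (0.899). Recipient 1302 was the lowest of the leukaemia libraries for Rps27 (0.865), at 25187 against 34925 to 36439.5 in the others.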

How the results depend on the processing

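For single genes, 234 differences were recomputed 3624 times under other settings. Of these, 3270 kept their direction and their side of the threshold, 311 lost the call (218 of them with 1 library left out, 44 in the fit to all 12 libraries), 42 gained one, none reversed and 1 without a call moved (Rpl28 in the leukaemia against Pax5 KO, 0.27 with upper-quartile scaling). In the fit to all 12 libraries the count of genes lower in Pax5 KO than in Pax5 WT was 35, and relative to the set 2 were lower and 2 higher there, while 22 were lower in the leukaemia against Pax5 WT. Relative to the set, 8 genes were lower in Pax5 KO with no filter on low values and 4 higher with centring on the median. With 1 library left out, the counts ran from 72 to 79 (Pax5 KO lower), 23 to 49 (leukaemia above Pax5 WT) and 64 to 77 (leukaemia above Pax5 KO). On the relative scale they ran from 6 to 12 lower and 5 to 12 higher in Pax5 KO, from 10 to 17 lower and 12 to 20 higher in the leukaemia against Pax5 WT, and from 10 to 19 lower and 11 to 19 higher against Pax5 KO. With the 50 highest other genes left out of the total, the mean share was 3.91% in Pax5 KO, 4.82% in Pax5 WT and 6.72% in the leukaemia. Recipient 1308 (5.29%) still lay below Pax5 WT 4 (5.48%) on this measure. Leaving out 1 library gave shares of 3.47 to 3.59%, 4.14 to 4.44% and 5.54 to 6.35% in Pax5 KO, Pax5 WT and the leukaemia. The cause of these shifts was not tested.

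Same-numbered Pax5 KO and Pax5 WT libraries had correlated deviations of 0.00493 to 0.06162, none over 0.1, and of the Pax5 KO libraries only number 4 correlated best with its own number. With the replicate number as a block, 78 genes were lower in Pax5 KO, and relative to the set 7 were lower and 8 higher. Between the leukaemia and Pax5 KO the median difference of all tested genes was -0.11 with the authors' scaling and 0.06 with edgeR's, so differences there hold relative to that shift.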

Other observations

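Outside the set, the genes whose log2 values followed the mean of the 82 most closely over the 12 libraries were Itgb3bp, which encodes a centromere protein (Pearson's r = 0.990), Lsm7, of the Lsm ring that binds U6 RNA and decaying mRNAs (0.988), Guk1, the guanylate kinase (0.988), Mrpl48 (0.987) and Tomm5, of the mitochondrial import pore (0.987). These are descriptions across libraries in 3 groups, chosen for their likeness. Itgb3bp was at 1309 ± 42.0 in Pax5 KO, 2001 ± 197 in Pax5 WT and 3739, 4008, 2814 and 2622 in recipients 1300, 1301, 1302 and 1308. The groups did not overlap, and the recipients stood in the same order as for the mean of the set, with 1301 highest and 1308 lowest.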
